A study of Mus musculus with 39 samples.

Results

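The genes described here encode, in the nucleus, the machinery of oxidative phosphorylation. They were found by name: every gene whose symbol begins with Nduf, Uqcr, Cox4 to Cox8 or Atp5, or is Sdha, Sdhb, Sdhc or Sdhd, leaving out pseudogenes. The rule found 92 of 25219 genes in the deposited table, and it used no measured value. By name, 45 belong to complex I, 4 to complex II, 8 to complex III, 18 to complex IV and 17 to complex V. Of the 92 genes, 81 encode subunits, and the other 11 are 7 complex I assembly factors of the Ndufaf family and the related genes Ndufa4l2, Cox7a2l, Atp5s and Atp5sl.

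The genes were measured in 39 single crypt epithelial cells of mice with the alleles Lgr5-EGFP-Ires-CreERT2 and Rosa-lsl-tdTomato, called Lgr5ki:R26RtdTomato in the study, in which an Lgr5-driven CreERT2 switches on tdTomato after tamoxifen, so that Lgr5-expressing cells and their progeny stay red. The mice received tamoxifen 24 h before 10 Gy of total body irradiation, and cells that were positive for tdTomato and negative for Sca1 were sorted 48 h after irradiation. All 39 cells share this genotype and treatment, no untreated cell was analysed here, and the labels do not say which animal a cell came from. The study divided the cells by genes of intestinal stem cells (ISCs) into Cluster 1 (22 cells) and Cluster 2 (15 cells). Cells 9 and 79 are in neither. None of the 92 genes is in the ISC list behind that division. Since no label ties a cell to an animal, the cells were handled as a single sample. Each SD below is a spread between cells, and differences between the clusters are given as values with no test.

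Complexes I and II feed electrons from NADH and succinate into ubiquinone. Complex III passes them to cytochrome c, and complex IV passes them on to oxygen. Complexes I, III and IV pump protons across the inner mitochondrial membrane, and complex V, the ATP synthase, lets them flow back and makes ATP. Most subunits are encoded in the nucleus, while the mitochondrial genome encodes a small set of core subunits of complexes I, III, IV and V. No gene with a name that begins with mt- is among the values analysed here. In the crypt, stem cells are known for active mitochondrial respiration.

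Sequencing depth was between 398418 and 3903971 estimated counts per cell, and its median was 3089188. Levels are in FPKM, that is fragments divided by transcript length in kilobases and by the sequencing total of each cell. With 1 FPKM as the limit of detection, a cell held between 2287 and 5779 detected genes. Epcam, an epithelial marker, was detected in 39 of 39 cells, while Cd3e, Col1a1, Col3a1, Pdgfra and Pecam1 of leukocytes, stroma and endothelium were at 0 in every cell. Vim of stroma was at 3.29 FPKM in cell 66 and Lyz2 of myeloid cells at 1.58 in cell 63, and Ptprc, a leukocyte gene, reached at most 0.312 in cell 52, under the limit. Of 4 crypt base markers, Olfm4 was found in 22 of 22 Cluster 1 cells and in 10 of 15 Cluster 2 cells. Smoc2 was found in 21 and 5, Ascl2 in 16 and 4, and Lgr5 in 4 and 2. The study counts Olfm4, Smoc2 and Ascl2 among ISC genes, and the clusters were made from such genes, so these differences were built into the grouping. Cell 96 of Cluster 2 held 394 FPKM summed over 3 tuft cell markers, and cell 79 held 286 of these and 40997 FPKM of Fabp1, an enterocyte gene. Markers of Paneth cells (4 genes, summed) had a median of 151 FPKM in Cluster 1 (1.31 to 1552) and 363 in Cluster 2 (28.7 to 8793, the highest in cell 56). Those of goblet cells (4 genes) had medians of 10.8 (0.0637 to 2148) and 29.1 (0 to 11352, the highest in cell 5). Cell 9 had the lowest count, and 33.4% of its total lay on genes, against a median of 88.1%.

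Oxidative phosphorylation genes were abundant in nearly all cells. Mean FPKM over the 39 cells had a median of 249.9 over the 92 genes, and the highest was 1528. In each cell, the 92 genes together held between 4.56% and 7.15% of the summed FPKM, with a median of 5.83%. Detection in all 39 cells was reached by 39 genes, and 86 passed the filter for comparison (mean FPKM of 1 or higher across the 37 clustered cells). The other 6 were listed at 0 in every cell.

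The complexes differed in level (the plot of mean levels by complex). The median over genes of mean FPKM was 677 in complex III and 437 in complex V, against 274 in complex II, 221 in complex IV and 175 in complex I. Within single cells the order held for most pairs. The median FPKM of complex III was above that of complex I in 39 of 39 cells and above that of complex IV in 39 of 39, and complex V was above complex I in 39 of 39 and above complex IV in 38 of 39. Complex III was above complex V in 33 of 39 cells, so that these neighbours in the order changed places in 6. Complex IV contains Cox6a1, the gene of highest mean level, and also 5 of the 6 genes at 0. Over its 13 detected genes the median was 356, above that of complex II, and in single cells the median of those 13 was under that of complex III in 34 of 39 cells, under complex V in 28 and under complex II in 8. The place of complex IV in the order thus depended on whether genes at 0 were counted.

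**Figure D1:**
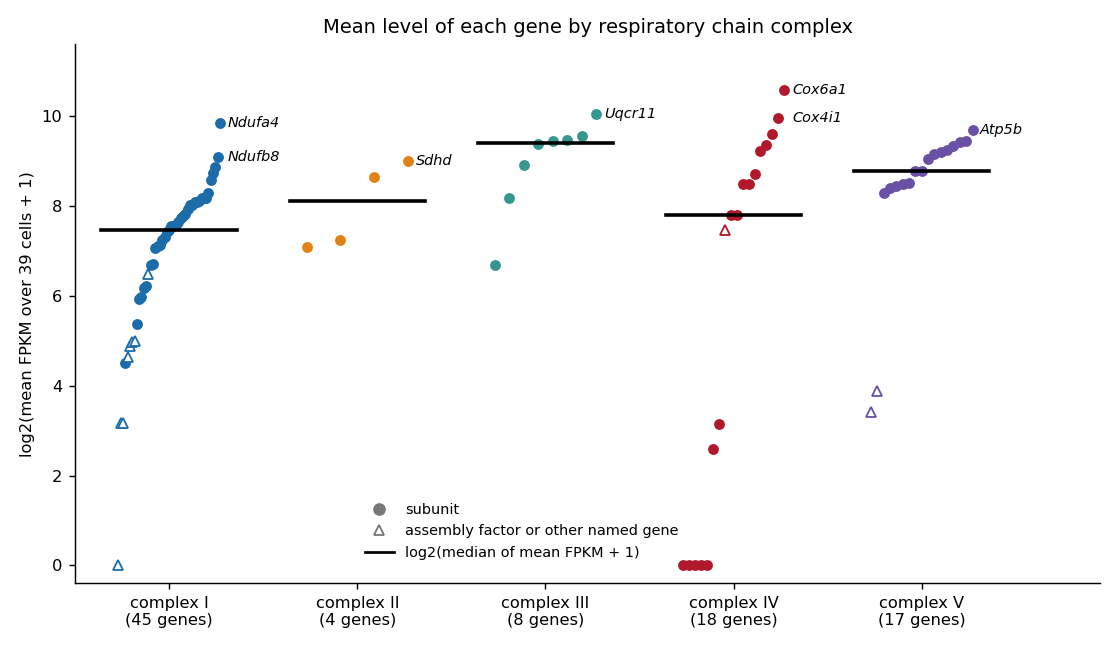
Each point is 1 of the 92 genes, placed by complex on the x axis and by log2(mean FPKM over 39 cells + 1) on the y axis. Filled circles are subunits, open triangles are assembly factors and related genes, and black lines mark the median of each complex. Complexes III and V lie highest, Cox6a1 of complex IV is the gene of highest level, and 6 genes lie at 0.

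In complex I, the highest mean was that of Ndufa4, a small protein named for complex I that is now placed in complex IV. Its FPKM had a lowest value of 126, a median of 881 and a highest value of 1977 over the 39 cells. Ndufb8 and Ndufb9, accessory subunits of the membrane arm, followed with medians of 537 (2.62 to 1685) and 437 (7.32 to 976). The 7 nuclear core subunits, among which are the carriers of the flavin and of the iron-sulfur clusters, were lower. Their mean FPKM lay between 70.95 for Ndufs1, the largest iron-sulfur subunit, and 309 for Ndufs7, with a median of 157. The 7 Ndufaf assembly factors, which help to build the complex and are not part of it, lay between 7.95 and 88.3 and were detected in a median of 22 of 39 cells.

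All 4 subunits of complex II, which is also the succinate dehydrogenase of the TCA cycle, were present. Sdhd, a membrane anchor, ranged from 0.337 to 1146 FPKM with a median of 508. Sdhb, the iron-sulfur subunit, ranged from 2.72 to 1029 with a median of 335, and was detected in 39 of 39 cells. Sdhc, the other anchor, had a median of 125 and Sdha, the flavoprotein that binds succinate, a median of 119, and they were detected in 36 and 34 cells. Although the enzyme holds 1 copy of each, Sdhb was above Sdha in 34 of 39 cells.

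Of the small subunits of complex III, Uqcr11 and Uqcr10 were among the most even genes of the group. Uqcr11 ranged from 275 to 1935 FPKM with a median of 1022. Uqcrq ranged from 124 to 2105 with a median of 643, and Uqcrb from 0.731 to 1536 with a median of 682. Uqcrfs1, the Rieske iron-sulfur protein, was the lowest of the complex, with a median of 88.9 and detection in 35 of 39 cells.

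In complex IV, Cox6a1 (chr5:115345654-115348955, minus strand, mm10), a small subunit of cytochrome c oxidase, was the most abundant of the 92 genes. It ranged from 4.72 to 3885 FPKM with a median of 1468. Cox4i1, the ubiquitous form of the largest nuclear subunit, ranged from 324 to 2623 with a median of 855, and was above Cox6a1 in 6 of 39 cells. Cox6b1, which faces the intermembrane space, ranged from 261 to 1382 with a median of 738. Its SD over cells was 0.55 on the log2(FPKM + 1) scale, the lowest among the oxidative phosphorylation genes averaging 10 FPKM or more, and Uqcr11, Ndufa4, Uqcr10 and Cox4i1 came next with 0.65, 0.68, 0.70 and 0.71. The highest SDs were those of Ndufa10 (2.86), Ndufaf3 (2.85), Ndufaf1 (2.79), Ndufs1 (2.74) and Sdha (2.71), each of which was missing from 5 or more cells.

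The ATP synthase genes were high in both of its parts. Atp5b, the catalytic beta subunit of the F1 head, ranged from 153 to 1634 FPKM with a median of 827. Atp5o, the stalk protein that confers oligomycin sensitivity, had a median of 764 and a range of 1.09 to 1407. The c ring through which protons flow is encoded by Atp5g1, Atp5g2 and Atp5g3, whose mature proteins are the same. Atp5g1 had the highest FPKM of the 3 genes in 24 of 39 cells, Atp5g3 in 13 and Atp5g2 in 2, and of their summed FPKM over all cells Atp5g1 held 42.5%, Atp5g3 36.02% and Atp5g2 21.5%. Fractional values made up 78.4% of the nonzero counts for Atp5g2, 46.2% for Atp5g3 and 38.5% for Atp5g1. How the quantifier divided reads is not given in the sources used here, and the 3 shares are uncertain.

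Complex IV has several subunits with forms known from particular tissues. Cox4i2, Cox6a2, Cox7b2, Cox8b and Cox8c, and likewise Ndufa4l2, were at 0 in 39 of 39 cells, for which the exact 95% interval reaches 9.03% of cells with reads, not of cells that express the gene, while Cox4i1, Cox6a1 and Cox6b1 were detected in 39 and Cox7a2, Cox7b and Cox8a in 38. Cox7a1, the form known from heart and skeletal muscle, was detected in 6 cells (15.4%, exact 95% interval 5.86 to 30.5). Its FPKM was 134 in cell 29, 75.03 in cell 5, 40.9 in cell 34, 29.3 in cell 51, 23.7 in cell 71 and 5.68 in cell 7. Of these cells, 4 were in Cluster 2 and 2 in Cluster 1. Cox6b2, known from testis, was detected in 11 cells, at 81.7 FPKM in cell 48 and at most 24.5 in the other 10.

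Nuclear respiratory genes are known targets of NRF1, of the ETS family factor GABP and of YY1, and the promoters of the 92 genes were therefore searched for their letters. RefSeq promoters (GRCm38.p6, 250 bases before to 50 after the start) were found for 76 of the 92 genes. The letters searched, on both strands, were CGCATGCG for NRF1, CCGGAAG for ETS factors and AAGATGGCG for YY1. NRF1 letters were in the promoters of 11 of 76 genes (14.5%), against 2.07% of all 27025 genes with a promoter and 4.32% of the 648 other genes at a mean of 100 FPKM or more. YY1 letters were in 8 (10.5%), against 1.64% and 4.32%. ETS letters were in 17 (22.4%), against 9.93% of all genes and 27.5% of the other abundant genes. Of the 59 genes of the group that themselves averaged 100 FPKM or more, 16 held ETS letters (27.1%), 8 NRF1 letters (13.6%) and 7 YY1 letters (11.9%), so at that level the ETS share was near that of the other genes. Genes with the NRF1 letters had a median difference between the clusters, on the log2 scale described below, of 0.15 (7 of 11 higher in Cluster 1), and those without had 0.20 (39 of 63). For ETS letters the medians were 0.05 and 0.24, and for YY1 letters 0.17 and 0.21.

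The 250 bases before the start are shown for 3 genes on the strand of the gene, with matches in capitals: Cox6a1, the most abundant gene, Atp5j, a stalk subunit of the ATP synthase that held all 3 motifs, and Ndufa10, which differed most between the clusters and held none. The windows lie at chr5:115348959-115349208, chr16:84834977-84835226 and chr1:92473759-92474008, all on the minus strand. With the base before the start as -1, Cox6a1 holds NRF1 letters from -161 to -154 and ETS letters, in reverse, from -16 to -10. Atp5j holds NRF1 letters from -147 to -140, YY1 letters from -88 to -80 and ETS letters from -61 to -55. No matches overlap.
Cox6a1: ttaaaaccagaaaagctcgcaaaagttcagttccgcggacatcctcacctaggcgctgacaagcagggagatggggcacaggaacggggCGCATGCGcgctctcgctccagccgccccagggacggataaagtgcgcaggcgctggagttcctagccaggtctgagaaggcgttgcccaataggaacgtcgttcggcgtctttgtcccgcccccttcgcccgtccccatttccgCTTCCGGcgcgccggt
Atp5j: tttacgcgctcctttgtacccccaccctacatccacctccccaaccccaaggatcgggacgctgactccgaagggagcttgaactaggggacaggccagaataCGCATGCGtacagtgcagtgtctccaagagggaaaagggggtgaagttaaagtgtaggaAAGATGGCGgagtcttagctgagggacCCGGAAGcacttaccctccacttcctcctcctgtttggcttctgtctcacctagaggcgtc
Ndufa10: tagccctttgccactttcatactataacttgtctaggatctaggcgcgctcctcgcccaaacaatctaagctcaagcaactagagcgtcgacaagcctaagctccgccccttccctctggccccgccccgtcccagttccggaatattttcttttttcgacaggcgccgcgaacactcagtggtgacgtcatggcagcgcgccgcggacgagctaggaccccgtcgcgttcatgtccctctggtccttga

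To compare cells, a score was taken as the mean of log2(FPKM + 1) over the 92 genes. Its median over the 39 cells was 6.64. The lowest scores were 3.19 in cell 9, 5.32 in cell 96 and 5.45 in cell 79, and the highest was 7.06 in cell 34. These 3 low cells also had the fewest genes detected, 2287, 2988 and 2335. Of the 92 genes, 57 were detected in cell 9, 69 in cell 96 and 66 in cell 79, against a median of 80. The share of summed FPKM on the 92 genes ordered the cells differently, since it was 5.66% in cell 9, 6.50% in cell 79 and 4.56% in cell 96, the lowest of all.

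**Figure D2:**
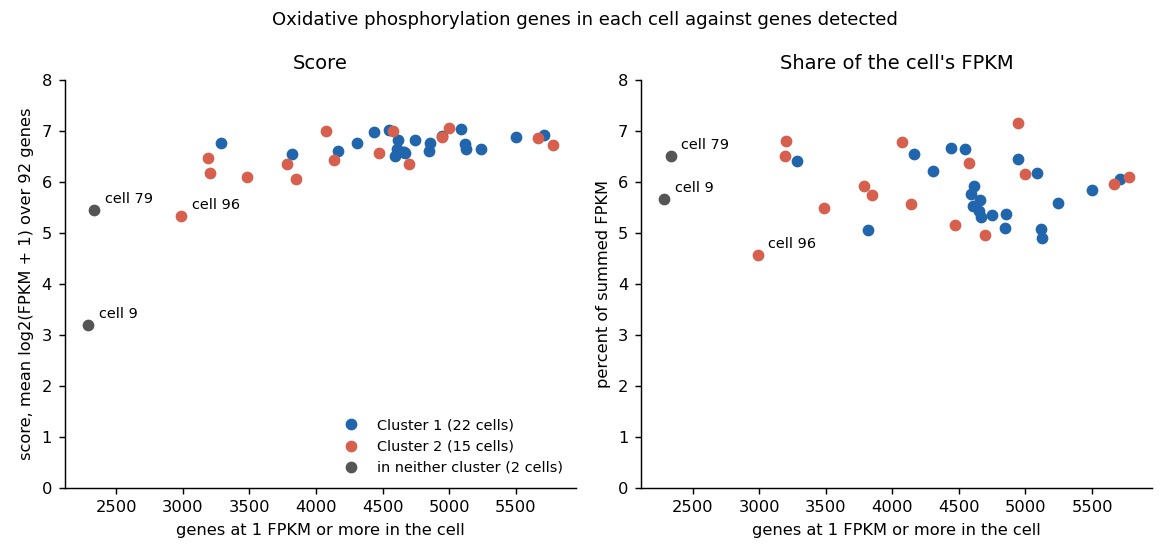
Each point is 1 cell, with its genes detected at 1 FPKM on the x axis, and the score (left) or the percent of summed FPKM on the 92 genes (right) on the y axis; colours give the cluster. The score is lowest in cells 9, 96 and 79, which have the fewest genes detected, while the share of FPKM of cells 9 and 79 lies within the range of the others.

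Score and genes detected moved together over the 39 cells, with Pearson's r of 0.71 and Spearman's rho of 0.58, given as a description since both come from the same libraries. Without cells 9 and 79, r was 0.63. It was 0.27 over the 22 cells of Cluster 1 and 0.70 over the 15 of Cluster 2. The share of summed FPKM had an r of -0.09 with genes detected over the 39 cells. Between complexes, the scores of I and III had the highest correlation over the 37 cells of the clusters (r of 0.72), and those of II and IV the lowest (0.03). By Spearman's rho I and III were also highest (0.55), while III and V were lowest (-0.18). All of these points share library, depth and detection.

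The score was slightly higher in Cluster 1 and more even there. It was 6.74 ± 0.16 (SD, 22 cells) in Cluster 1, from 6.50 to 7.03, and 6.48 ± 0.47 (SD, 15 cells) in Cluster 2, from 5.32 to 7.06. The difference of 0.26 was smaller than the pooled SD of 0.32. Of the 15 cells of Cluster 2, 8 lay below the lowest cell of Cluster 1, while the highest of all 39 cells was also in Cluster 2. Without cell 96 the difference was 0.17. The share of summed FPKM was 5.77% ± 0.56 in Cluster 1 and 5.95% ± 0.73 in Cluster 2, so the clusters overlapped and the order was the opposite of that of the score. Genes detected were 4706 ± 530 in Cluster 1 and 4256 ± 868 in Cluster 2. With 12 pairs of cells matched on genes detected the score difference was 0.14, and without cells under 3500 genes detected it was 0.083.

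Gene by gene, the mean of log2(FPKM + 1) over the cells of Cluster 2 was subtracted from that over Cluster 1. Of the 86 genes compared, 53 (61.6%) were higher in Cluster 1, and over all 9676 genes compared the share was 60.5%. The median was 0.22, against 0.20 over all genes. A difference of 1 or more was reached by 9 genes, against a background of 14.9%, and a difference of -1 or less by 1, Cox7a1 (-1.24), against a background of 4.89%. The share of genes higher in Cluster 1 was thus close to that of all genes, and the counts past 1 and -1 were under their backgrounds. Among genes averaging 100 FPKM or more, 44 of 69 of the group (63.8%) were higher in Cluster 1, with a median of 0.20 and 7 past 1, against 568 of 798 others (71.2%), with a median of 0.35 and 209 past 1. On the log2 ratio of mean FPKM, the median over the 86 genes turned to -0.06, with 0.07 over all genes, and 38 of 86 were higher in Cluster 1, against 52.8%. By that ratio 1 gene was past 1 and 4 were past -1, against backgrounds of 21.9% and 18.8%. Without cell 96 the median was 0.06, with 0.16 over all genes, and grouping the 39 cells anew (22 and 17 cells, with cells 9 and 79) it was 0.56, with 0.30 over all genes and 21 of 86 genes past 1, against a background of 19.4%. Without cells under 3500 genes detected the median was 0.017, with 0.094 over all genes. Then 4 genes were past 1 and 2 past -1, against 12.1% and 8.27%. Without cells 5, 56, 63 and 96, which had the highest goblet, Paneth or tuft marker levels of Cluster 2, the score difference was 0.18 and the median 0.090, with 0.14 over all genes.

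Beneath that total, the complexes differed (the plot of differences by group), and each is read against the 60.5% and the median of 0.20 of all genes. All 4 genes of complex II and all 7 core subunits of complex I were higher in Cluster 1, with medians of 0.83 and 0.68. Most of these genes are abundant, and their backgrounds by level and length are higher. Of the 798 other genes averaging 100 FPKM or more, 71.2% were higher in Cluster 1, with a median of 0.35. For the 458 of these over 1200 bases, it was 79.5%, with a median of 0.54. Of the 30 accessory subunits of complex I, 17 were higher in Cluster 1 (56.7%), with a median of 0.10. Complex III had 5 of 8 (62.5%, median 0.35) and complex V 13 of 17 (76.5%, median 0.23), so the shares of complex III and the accessory subunits and the median of complex V were near those of all genes. In complex IV, 2 of 13 were higher in Cluster 1, Cox5a and Cox7b, and the median was -0.38. These 13 include Cox7a2l, which is not counted as a subunit, and Cox7a1 and Cox6b2, which were low. Over the 12 compared subunits the median was -0.30. These gene counts carry no test, since genes of 1 cell share its library.

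The leaning of complex IV to Cluster 2 and of the core of complex I and complex II to Cluster 1 was kept under most of the other ways of counting. These reuse the same cells and give no independent support. Joining the core with complex II was not planned, and it unites groups that each leaned to Cluster 1. When single cells were left out in turn, 2 or 3 of the 13 complex IV genes and 10 or 11 of the 11 core and complex II genes were higher in Cluster 1. Over these fits the complex IV median ran from -0.42 to -0.17 (without cell 48), against -0.38 with all cells, and that of the core and complex II together from 0.67 to 0.96, against 0.79. With 12 pairs of cells matched on genes detected, the counts were 4 of 13 and 9 of 11, with medians of -0.23 and 0.72, against 52.6% and 0.054 over all genes. On the log2 ratio of mean FPKM they were 1 of 13 and 10 of 11, with medians of -0.36 and 0.27, against 52.8% and 0.069. Without cells under 3500 genes detected they were 1 of 13 and 9 of 11, with medians of -0.37 and 0.36, against 54.9% and 0.094. Without cells 5, 56, 63 and 96 the counts were 3 of 13 and 9 of 11, and the medians -0.25 and 0.56, against 57.6% and 0.14. In the new grouping of 39 cells complex IV had 7 of 13 and a median of 0.03, which lay under the 66.2% and 0.30 of all genes, and the core and complex II had 11 of 11 and a median of 1.23. For complexes I, III and V the median changed with the scale, to -0.05, -0.07 and 0.00 on the log2 ratio of mean FPKM. The accessory subunits of complex I went to -0.13 on that ratio, with 12 of 30 higher in Cluster 1. Without cell 96 the medians of complexes III and V fell to 0.13 and 0.12, and that of the accessory subunits to -0.03.

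**Figure D3:**
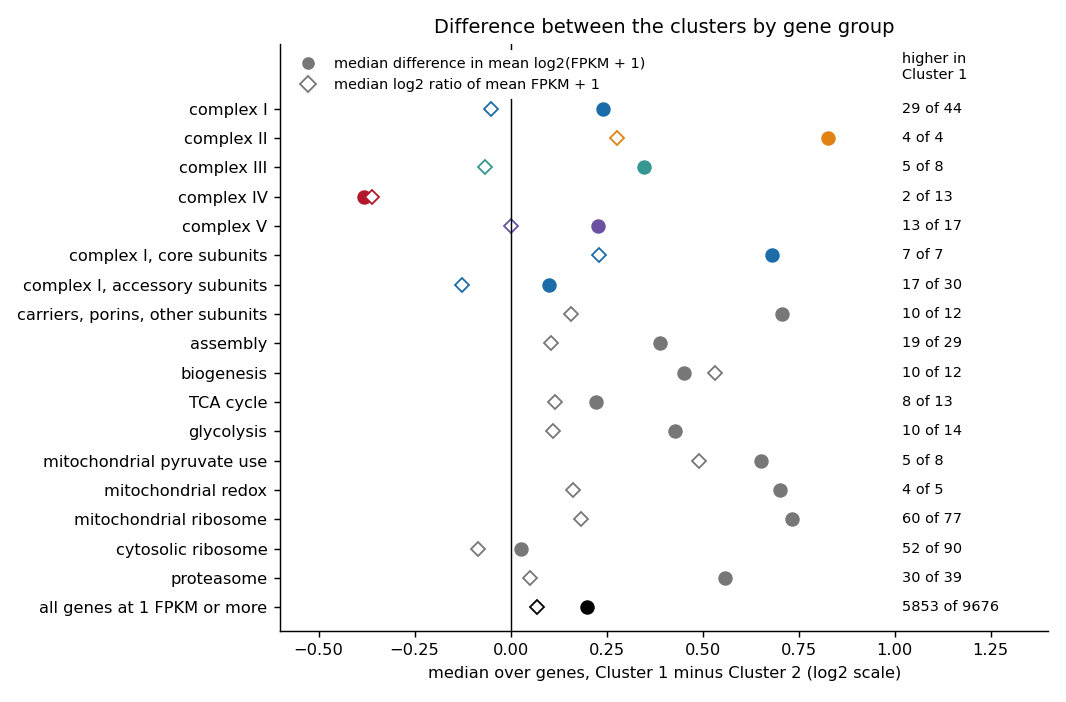
Each line is a gene group, with the median over its genes of the difference in mean log2(FPKM + 1) between the clusters (filled circles) and of the log2 ratio of mean FPKM + 1 (open diamonds) on the x axis, and on the right the number of genes higher in Cluster 1 by the first measure. Complex IV lies below 0 on both measures, complex II and the core of complex I above 0 on both, and complexes I and III and the accessory subunits of complex I change sign.

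Among genes averaging 10 FPKM or more, Ndufa10 and Ndufs1 leaned most to Cluster 1, and both were detected in a smaller share of Cluster 2 cells. Ndufa10, an accessory subunit of complex I (chr1:92439719-92473758, minus strand, mm10), ranged from 0 to 617 FPKM with a median of 272 in Cluster 1, and from 0 to 511 with a median of 60.6 in Cluster 2. It reached the limit of detection in 21 cells of Cluster 1 and 11 of Cluster 2, and its difference of 2.39 had a pooled SD of 2.65. Ndufs1 had medians of 72.7 (0 to 278) and 10.7 (0 to 273) FPKM, and it reached the limit in 21 cells of Cluster 1 and 10 of Cluster 2, with a difference of 2.02 and a pooled SD of 2.54. In both genes the ranges of the clusters overlapped almost entirely, and both genes were under the limit of detection in cell 63 of Cluster 2.

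Ndufv1, the flavin-bearing subunit that takes electrons from NADH, had medians of 139 (9.79 to 417) and 74.5 (0 to 212) FPKM, with a difference of 1.70 against a pooled SD of 1.79. Uqcrfs1 had medians of 124 (1.79 to 261) and 46.9 (0 to 242), with a difference of 1.50 against 2.37. Ndufb10, a membrane arm subunit, had nearly equal medians of 259 (166 to 654) and 258 (0.656 to 800), and its difference of 1.30 against 1.64 came with a wider spread in Cluster 2. For each of these 5 genes the difference was thus within 1 pooled SD. Among the core subunits, Ndufs3 changed sign with the scale: its difference was 0.14, while its mean was 113 FPKM in Cluster 1 and 171 in Cluster 2.

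Toward Cluster 2, the lowest differences were those of Cox7a1 (-1.24, detected in 6 of 39 cells), Cox7a2l (-0.89) and Ndufaf6, an assembly factor (-0.87, detected in 13 of 39). Cox7a1 and Ndufaf6 averaged under 10 FPKM, and the 5 genes that follow are the lowest above that limit. Cox7a2l, a factor for assembling respiratory supercomplexes, had medians of 132 (2.86 to 469) FPKM in Cluster 1 and 190 (49.7 to 476) in Cluster 2, with a difference of -0.89 against a pooled SD of 1.44. Cox4i1 had medians of 766 (379 to 1589) and 1257 (414 to 2623), and means of 788 ± 259 and 1318 ± 640 FPKM. Its difference of -0.63 slightly exceeded the pooled SD of 0.62, and 46.2% of its counts above 0 were not whole numbers. Cox4i1 was the 1 gene of these 10 to exceed its pooled SD.

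Atp5e, the epsilon subunit of the central stalk, had medians of 327 (99.0 to 769) and 494 (157 to 1738) FPKM, with a difference of -0.55 against 0.73. Cox6a1 had medians of 1306 (615 to 2054) and 1769 (885 to 3885), with a difference of -0.42 against 0.52. Atp5sl, a gene named for its likeness to Atp5s, was detected in 8 of 22 and 5 of 15 cells, and its difference was -0.41 against 2.41. Further complex IV genes leaned either way. Cox6b1 had medians of 689 and 937 FPKM (difference -0.41), Cox8a 342 and 431 (-0.38), and Cox6c 480 and 584 (-0.22), while Cox7b (difference 0.69) and Cox5a (0.48) were higher in Cluster 1.

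**Figure D4:**
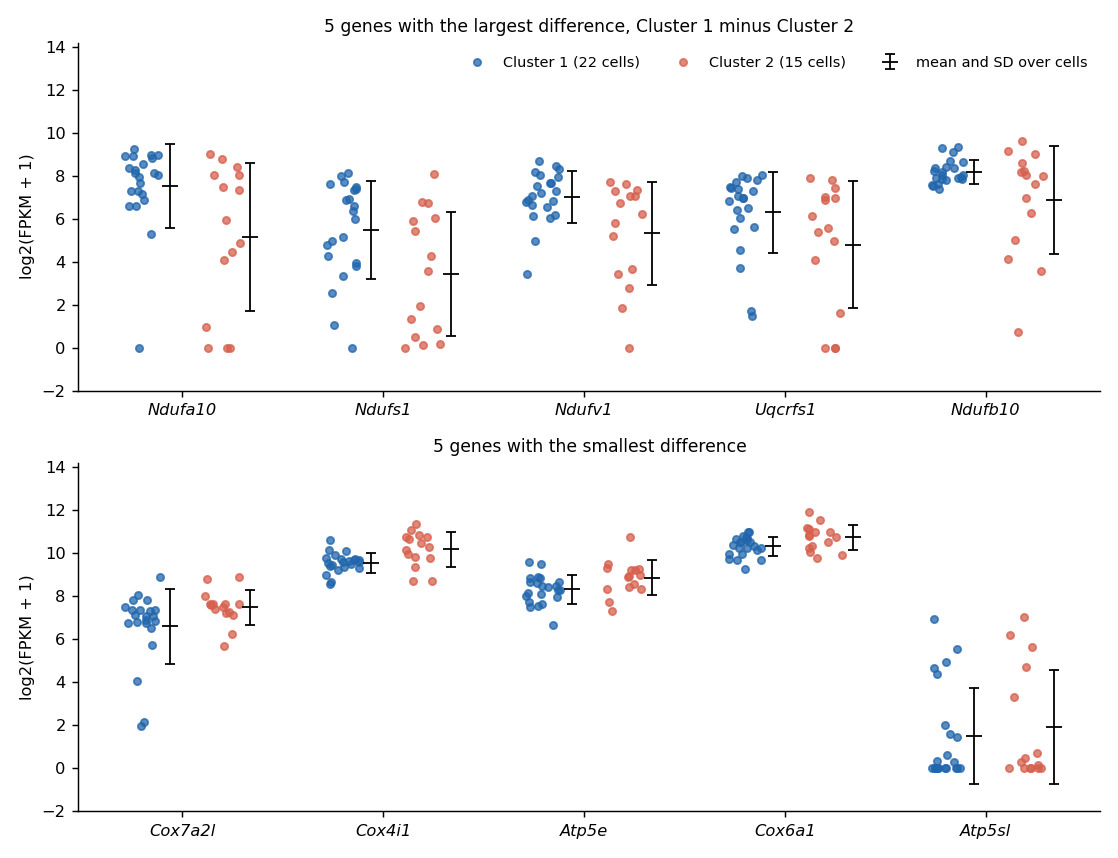
Values of log2(FPKM + 1) in each cell of Cluster 1 (blue, 22 cells) and Cluster 2 (red, 15 cells) for the 5 genes with the largest and the 5 with the smallest difference among oxidative phosphorylation genes averaging 10 FPKM or more; bars give the mean and SD over cells. The upper genes overlap between the clusters and lie at or near 0 in more cells of Cluster 2, while Cox4i1, Atp5e and Cox6a1 are high in every cell of both clusters.

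The direction went with transcript length. Of the 26 compared genes over 1200 bases, 21 were higher in Cluster 1 with a median of 0.67, and of the 40 genes of up to 700 bases 17 were, with a median of -0.02. Among those at 100 FPKM or more the counts were 15 of 16 (93.8%, median 0.70) and 15 of 35 (42.9%, median -0.02). Abundant genes outside the group also differed by length. Of the 798 that averaged 100 FPKM or more, 364 of 458 over 1200 bases (79.5%) and 70 of 138 of up to 700 bases (50.7%) were higher in Cluster 1, with medians of 0.54 and 0.002. Spearman's rho between length and difference was 0.54 over the 69 abundant genes of the group and 0.25 over these 798, as a description across genes that share the same cells. The core subunits of complex I had a median length of 1606 bases, complex II 1232 and complex IV 557. Among the abundant genes of up to 700 bases, 1 of 7 of complex IV were higher in Cluster 1, with a median of -0.22. In the other complexes it was 14 of 28, with a median of 0.02. The part of length in the difference was not tested.

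**Figure D5:**
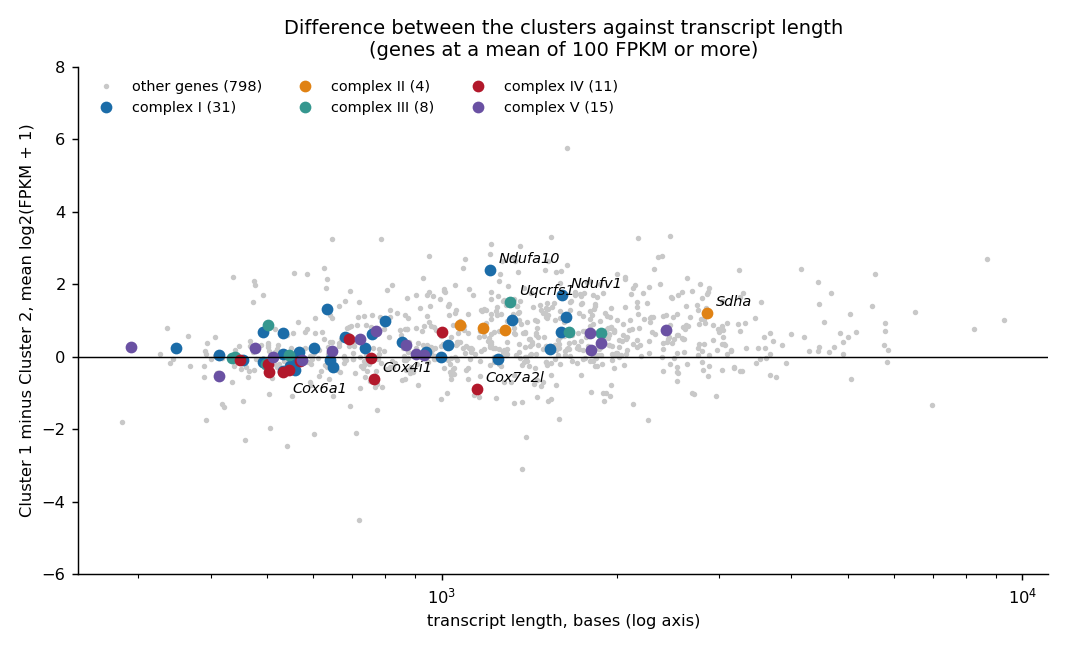
Transcript length in bases (x axis, log scale) against the difference in mean log2(FPKM + 1), Cluster 1 minus Cluster 2 (y axis), for genes at a mean of 100 FPKM or more: 69 oxidative phosphorylation genes coloured by complex and 798 other genes in grey. Longer genes lie more often above 0 in both sets, and most complex IV genes lie at or below 0 among the short genes.

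Other genes of the pathway, from lists written by hand, are read against all genes compared, of which 60.5% were higher in Cluster 1, and against those at a mean of 100 FPKM or more, of which 70.6% were. Of 12 electron carriers, porins, transporters and further subunits, 10 were higher in Cluster 1, with a median of 0.71 that was 0.16 on the log2 ratio of mean FPKM. Slc25a5, which exchanges ADP for ATP across the inner membrane, had the highest level of them, 3860 FPKM on average in Cluster 1 and 2473 in Cluster 2, with a difference of 1.27 against a pooled SD of 1.29. Vdac3, a porin of the outer membrane, had means of 354 and 163, and its difference of 1.77 exceeded the pooled SD of 1.44. Cycs, which encodes cytochrome c, had means of 462 and 375. Atpif1, the inhibitor of the ATP synthase, and Usmg5, a further subunit of that enzyme, were the 2 with a difference below 0, at -0.04 and -0.18. By mean FPKM, Etfdh (45.1 and 48.0) and Vdac2 (293 and 298) were also lower in Cluster 1.

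Mitochondrial ribosomal proteins, which translate the mitochondrial transcripts, were higher in Cluster 1 for 60 of 77 genes (77.9%) with a median of 0.73, and 25 were past 1, against a background of 14.9%. Of the 867 genes averaging 100 FPKM or more, 216 were. Cytosolic ribosomal proteins were higher for 52 of 90 with a median of 0.03. Proteasome subunits, a comparison with no tie to mitochondria, had 30 of 39 and a median of 0.56. On the log2 ratio of mean FPKM these medians were 0.18, -0.09 and 0.05. Assembly factors had 19 of 29 higher in Cluster 1 (65.5%, median 0.39, and 0.11 on the log2 ratio of mean FPKM).

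Genes that supply the chain were mixed. In the TCA cycle 8 of 13 (61.5%, near the 60.5% of all genes) were higher in Cluster 1 with a median of 0.22, and Mdh2, the malate dehydrogenase with the highest level of the list, went the other way with means of 796 and 1223 FPKM and a difference of -0.71 against 0.88. Glycolysis had 10 of 14 (median 0.43) and mitochondrial pyruvate use 5 of 8 (median 0.65). On the log2 ratio of mean FPKM the medians were 0.11 for the TCA cycle, 0.11 for glycolysis and 0.49 for mitochondrial pyruvate use. Of 5 mitochondrial redox genes 4 were higher in Cluster 1. Sod2, the superoxide dismutase of the matrix, was found in 22 of 22 Cluster 1 cells and 11 of 15 Cluster 2 cells, with medians of 67.7 and 18.8 FPKM, and its difference of 2.26 exceeded the pooled SD of 1.84. Prdx5, a peroxiredoxin, was detected in 15 of 22 and 15 of 15 cells, with means of 56.02 and 109 FPKM and a difference of -2.23 against 2.63. Transcription factors and enzymes of mitochondrial biogenesis were low, with a median of 6.17 FPKM over 13 genes. Nrf1 was detected in 11 of 39 cells, Gabpa in 15, Yy1 in 23 and Ppargc1a, a coactivator of respiratory genes, in 3, while 10 of 12 genes compared were higher in Cluster 1 with a median of 0.45.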

How the data were processed

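FPKM values and estimated counts were analysed as deposited. The authors' methods give capture on a microfluidic chip, SMARTer and Nextera XT libraries and paired-end reads, and the submitters' processing notes name bcl2fastq 1.8.4 and TopHat2 2.0.14 with builds mm10 and GRCm38. The quantifier is not given in the sources used here. The authors deposited FPKM, scaled to a total per cell, and estimated counts, which were not normalized and served for depth and, after rounding, for thinning. Transcript lengths and gene positions were taken from the deposited table, in which 54 of 92 gene starts equalled those of RefSeq. Non-whole values (by more than 1e-06) made up 18.4% of counts above 0; 44 of 86 genes of the group had such a count, and 8 had them in over 50% of cells with reads, Atp5g2 and Cox7c among them.

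SMARTer libraries amplify whole transcripts without molecular identifiers, so a count is no number of molecules and a lost transcript appears as 0. The exact intervals on numbers of cells take the cells as independent draws, although their animals are not known. They cover neither lost transcripts nor a spread between animals. A pseudocount of 1 FPKM was added before log2, which understates differences of low genes. Cluster labels were read from the printed heat map of the study; clustering the ISC list anew grouped 37 of 37 cells as read. No test was run, since the animal of origin of the cells is not given. The members, lists, markers and motifs were chosen with earlier results of these data known. The split of complex I into core and accessory subunits, and the joining of the core with complex II, were not planned. Genes named were the 3 of highest mean in each complex (all 4 of complex II), the 5 with the largest and smallest difference and the 5 with the highest and lowest SD (at a mean of at least 10 FPKM), the isoforms of a subunit, and those detected in no cell. Other genes named with values (Ndufs3, Ndufs7, Ndufaf6, Cox5a, Cox6c, Atp5j, and those of the pathway lists) were chosen after their values were seen. Doublets were not called, since capture sites were inspected under the microscope per the authors' methods. The steps were tested on simulated counts. Computations ran in Python 3.11.15 with matplotlib 3.10.9, pandas 2.3.3, scipy 1.17.1 and numpy 2.4.6.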

Additional observations from a re-analysis of the deposited data

How the results depend on the processing

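The median score of 6.64 was 7.60 with FPKM rescaled to the same sum in each cell, 7.77 as a median over genes and 7.48 over genes averaging 10 FPKM or more. The complex IV median of 221 FPKM was 356 without its genes at 0, a setting chosen after seeing the data. The number of genes detected in every cell fell from 39 to 22 at a limit of 5 FPKM. The score difference of 0.26 ranged from 0.17 (without cell 96) to 0.30 when single cells were left out, and the median difference of 0.22 from 0.06 (without cell 96) to 0.29. Genes past 1 ranged from 7 to 11, and genes past -1 from 0 (without cell 5 or 29) to 2 (without cell 71 or 76). Both measures turned negative on the log2 ratio of mean FPKM, to -0.062 over genes and -0.077 for the sum over genes. Clusters from all 39 cells gave a score difference of 0.51, a median of 0.56 and 21 genes past 1. Matched cells gave a score difference of 0.14 and a median of 0.11. Genes past -1 were 2 with a pseudocount of 0.1 FPKM, with rescaled FPKM and with matched cells, and 0 with a filter at 10 FPKM, which removes Cox7a1. Without cells under 3500 genes detected, a setting chosen after seeing the data, the score difference was 0.083, the median 0.017, and 4 genes were past 1 and 2 past -1. Without cells 5, 56, 63 and 96, also chosen after seeing the data, the score difference was 0.18 and the median 0.090. The causes of these shifts were not tested, except for the filter. No paired analysis was possible because the cells form 1 group and carry no shared numbers. Thinning to 600000 counts, which left out cell 9, and using subunits alone left these results on the same side. Depth limits what a 0 means: a gene at 0 in a cell may have been lost before amplification.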
